A study of Homo sapiens with 6 samples.

Results

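The 39 nuclear-encoded genes described here code for subunits of respiratory complexes II, III and IV and of ATP synthase (complex V), with cytochrome c, in PC3 cells, an established human prostate cancer cell line. They were taken from the table of 62700 gene rows by exact symbol, and all 39 were found and passed the filter on low counts. In 3 libraries the cells carried a short hairpin RNA (shRNA, which directs the degradation of a matching messenger RNA) against TTC3, a gene for an E3 ubiquitin ligase, and the labels call their genotype TTC3 knockdown. In the other 3 libraries the cells carried a control shRNA, and the labels call their genotype WT. Total RNA depleted of ribosomal RNA was sequenced. The labels name a single shRNA per group and do not say whether libraries were grown separately, and p-values therefore cover the spread among these 6 libraries alone, which could be technical.

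The respiratory chain sits in the inner membrane of mitochondria. Complex II passes electrons from succinate to ubiquinone, complex III passes them on to cytochrome c, and complex IV passes them to oxygen, with complexes III and IV pumping protons out of the matrix. ATP synthase lets the protons flow back and uses that flow to make ATP. Apart from complex II, each of these complexes joins subunits made from nuclear genes with a few made from mitochondrial DNA, so its supply draws on both genomes.

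TTC3 was at 228, 183 and 178 CPM (counts per 1e6 counts, with library sizes scaled by TMM) in TTC3 shRNA libraries, against 695, 684 and 680 CPM in control shRNA libraries. The targeted gene was therefore lower in each of the 3 libraries labelled as knockdown, by a log2 fold change of -1.81 ± 0.10 (SE; edgeR quasi-likelihood adjusted p = 5.65e-05). TTC3 shRNA replicate 1 stood apart from replicates 2 and 3. Mitochondrially encoded genes took 6.29%, 3.73% and 3.54% of counts in TTC3 shRNA replicates 1, 2 and 3, against 5.29% to 5.53% in control libraries. The small cytoplasmic and nuclear RNAs 7SL and 7SK took 5.00%, 8.77% and 10.6%, against 5.80% to 6.38% in control libraries. In a straight-line fit over other protein-coding genes, the log2 level relative to control changed with each doubling of transcript length. The change was -0.02, -0.17 and -0.21 in TTC3 shRNA replicates 1, 2 and 3. Keratins KRT8, KRT18 and KRT19 lay between 139 and 541 CPM in TTC3 shRNA libraries and between 156 and 339.9 CPM in control libraries. EPCAM, an epithelial adhesion molecule, was at 5.39 to 5.64 CPM in TTC3 shRNA libraries and at 4.32 to 4.50 CPM in control libraries, while E-cadherin (CDH1) was at most 0.703 and 2.04 CPM. The defining genes KLK3 (prostate-specific antigen), CD3E (T cells), HBB (red cells) and CDH5 (endothelium) had 0 counts in all 6 libraries. The summed level of the 4 fibroblast genes, most of it COL1A1, was 43.8 to 102 CPM in TTC3 shRNA libraries and 18.8 to 19.7 CPM in control libraries, and CD68, a macrophage gene, was at 15.9 to 37.98 CPM in TTC3 shRNA libraries and 11.8 to 16.5 CPM in control libraries. The part of these differences in the results was not tested, apart from transcript length.

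Most of the subunit genes were higher with the TTC3 shRNA. Of the 39, 30 were higher and 1 (COX5A) was lower, while 8 did not pass the test (edgeR quasi-likelihood, Benjamini-Hochberg adjusted p below 0.05 over the 24325 genes tested). Over all tested genes, 15.7% were called higher and 17.8% lower, and over the protein-coding genes among them 20.9% and 21.3%. Of 10797 other protein-coding genes with a mean of at least 5 CPM, 25.5% were higher and 17.9% lower. The median log2 fold change was 0.60 over the 39 genes, against -0.02 over all tested genes and -0.000357 over the 14901 protein-coding genes among them. Increases that passed were of modest size, between 1.197-fold and 2.10-fold, and 1 of them exceeded 2-fold. In 32 of the 39 genes every TTC3 shRNA library lay above every control library, an arrangement found for 23.3% of all tested genes.

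The same picture was seen in the summed level. Together the 39 genes took 0.460%, 0.512% and 0.524% of counts in TTC3 shRNA replicates 1, 2 and 3, against 0.363%, 0.363% and 0.367% in control replicates 1, 2 and 3. All 3 TTC3 shRNA libraries thus lay above the control libraries, and replicate 1 was the lowest of the 3. That replicate was also the lowest of its group for 27 of the 39 genes taken singly, and the highest for 9. Relative to the control mean, the median log2 level of the 39 genes was 0.34, 0.65 and 0.74 in TTC3 shRNA replicates 1, 2 and 3, while that of all tested genes was -0.01, -0.03 and -0.03. Spread between libraries was wide with the TTC3 shRNA and narrow with the control shRNA: the median SD was 14.2% of the mean in TTC3 shRNA libraries and 2.16% in control libraries. In bulk libraries, more RNA per cell and a different make-up of the culture cannot be told apart.

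**Figure D1:**
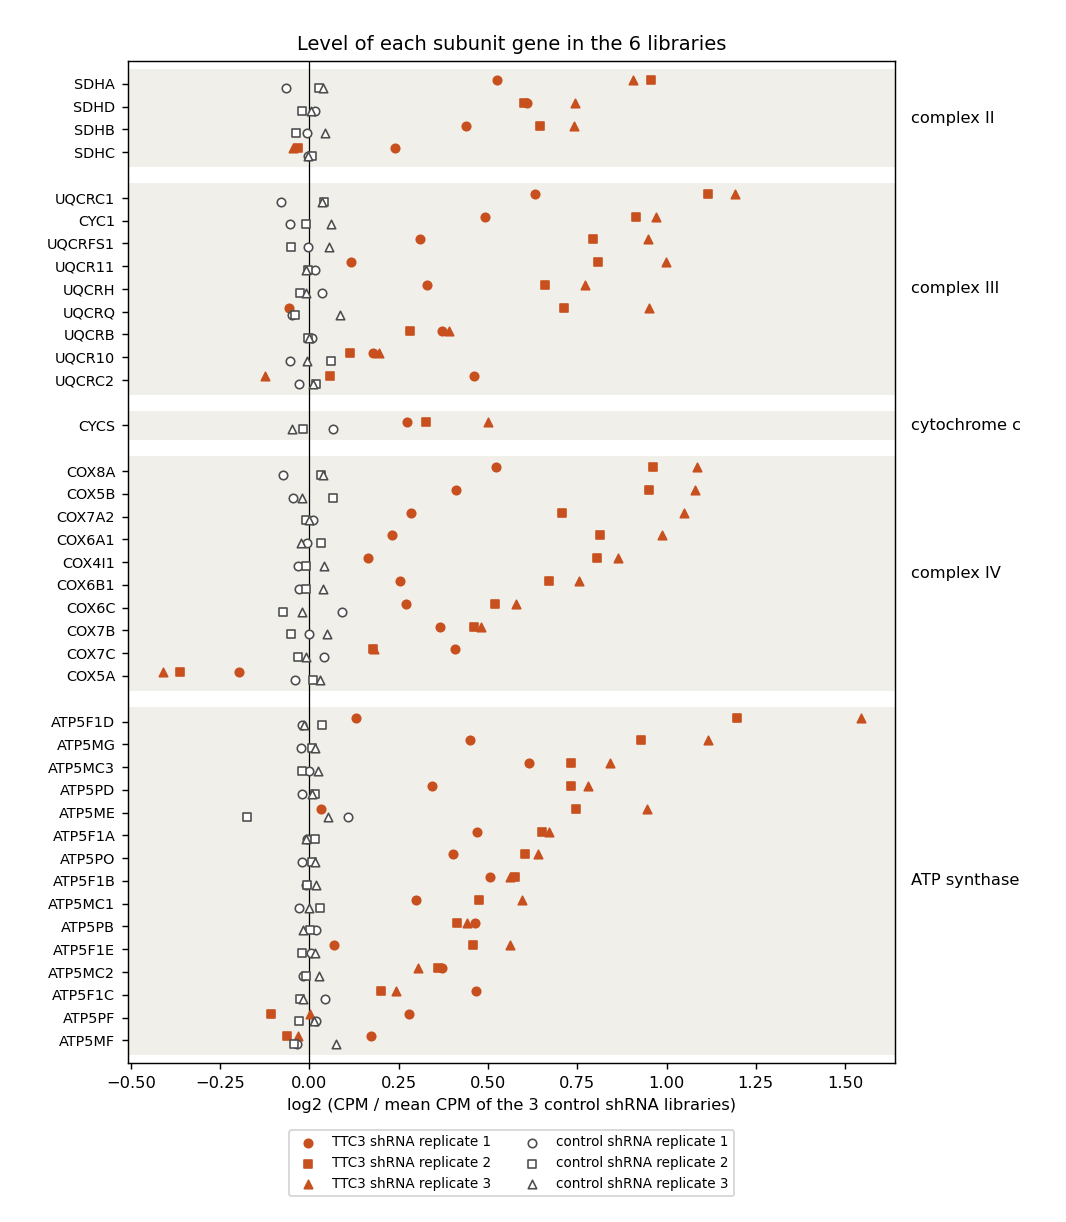
Level of each of the 39 subunit genes in each library, as log2 of CPM over the mean CPM of the 3 control shRNA libraries, grouped by complex; filled symbols are TTC3 shRNA libraries, open symbols control shRNA libraries, and the symbol shape gives the replicate number. Filled symbols lie to the right of all open symbols for 32 genes and to the left for COX5A alone, and TTC3 shRNA replicate 1 (circles) is the filled symbol nearest to the controls for most genes.

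Short transcripts as a class were higher in TTC3 shRNA replicates 2 and 3, and to a lesser degree in replicate 1. Most subunit genes have short transcripts (median 957 bases). The comparison was therefore also made with each library's trend against transcript length removed. With that trend removed, 19 of the 39 genes were higher and COX5A was lower, where 13% of 22457 genes were called higher. The median log2 fold change became 0.22, against -0.15 over all genes in that fit, so the distance between the subunit genes and all genes was 0.37 with the trend removed and 0.61 before. In all, 18 genes that were higher at first kept that call, 12 lost it, and SDHC gained it. Among the 39 genes themselves fold change and length were nearly unrelated (Spearman's rho -0.03, a description over genes that share the 6 libraries). Taken by library, rho was 0.34, -0.09 and -0.15 in TTC3 shRNA replicates 1, 2 and 3, so its sign differed between replicates.

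**Figure D2:**
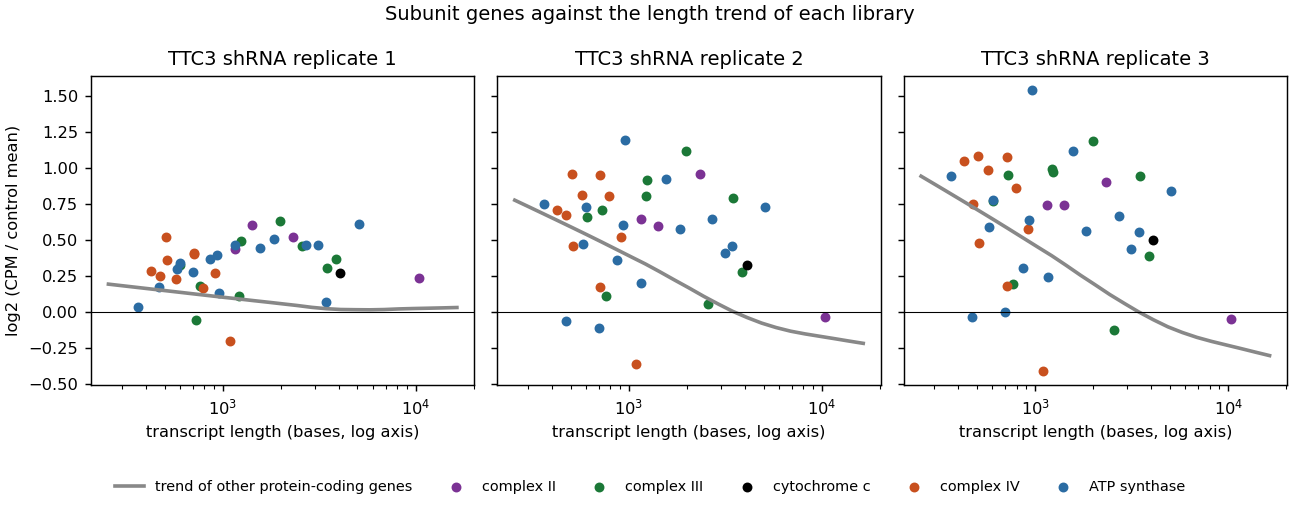
Log2 level relative to the control mean (y axis) against transcript length in bases (x axis, log scale) for the 39 genes in TTC3 shRNA replicates 1, 2 and 3, coloured by complex, with the trend of other protein-coding genes as a grey line. The grey line is a smooth (lowess) curve. At a log2 length of 9 it lies at 0.15, 0.59 and 0.70 in replicates 1, 2 and 3. At a log2 length of 12 it lies at 0.02, -0.04 and -0.05. It thus favours short transcripts in each replicate, least in replicate 1.

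Calls also depended on single libraries. Whichever of the 6 libraries was left out, 19 genes passed the test, all as higher, and 15 of these also passed with the length trend removed. The 15 were SDHA, SDHB and SDHD of complex II, UQCRB, UQCRC1 and CYC1 of complex III, COX5B and COX8A of complex IV, and ATP5F1A, ATP5F1B, ATP5MC3, ATP5MG, ATP5PB, ATP5PD and ATP5PO of ATP synthase. Without TTC3 shRNA replicate 1, 35 of the 39 genes were called, in a fit that called 13739 of all 25416 tested genes. Without control replicates 1, 2 or 3 the number of the 39 called was 21, 19 and 20, in fits that called fewer genes in all. The median log2 fold change of the 39 genes in those fits was 0.57, 0.57 and 0.60, against 0.60 with all 6 libraries. The share of all tested genes that passed whichever library was left out was not counted.

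Promoters of these genes are shown because the subunits moved together and because respiratory promoters are a textbook case of shared motifs: NRF1 (nuclear respiratory factor 1), ETS-family factors such as GABP, and YY1 are known to bind many of them. Promoter windows of 300 bases, 250 before and 50 after the annotated start, were read from RefSeq (GRCh38.p14) for 31 of the 39 genes and searched on both strands. The NRF1 motif GCGCATGCG was in 6 of the 31 windows (19.4%), against 1.92% of 35116 promoters. Its inner part GCATGCG, which every NRF1 match contains, was in 9 (29.03%), against 3.91%. The ETS motif CGGAAG was in 17 (54.8%), against 19.5%, and the YY1 motif AAGATGGCG in 3 (9.68%), against 1.75%. For all 4 motifs a listed gene counted if any of its windows matched. The comparison values count single promoters, with no limit to expressed or protein-coding genes, so the 2 rates are not strictly alike. By call, 4 of 6 genes with the NRF1 motif and 20 of 25 without it were called higher, as were 13 of 17 genes with the ETS motif and 11 of 14 without it. The 250 bases before the start are given 5′ to 3′ for 5 genes, with matches in capitals. SDHD, COX6A1 and ATP5F1C hold the NRF1 motif and ETS matches; in SDHD and ATP5F1C the NRF1 matches of both strands overlap in a single run, and COX6A1 holds the inner part again further on. COX8A holds ETS matches alone. COX5A, the gene that was lower, holds none of the 4 motifs in its window. Lack of a motif was not particular to COX5A, as 11 of 14 genes without the ETS motif were called higher. A link between motifs and direction was not tested.
SDHD (chr11:112086623-112086872, plus strand): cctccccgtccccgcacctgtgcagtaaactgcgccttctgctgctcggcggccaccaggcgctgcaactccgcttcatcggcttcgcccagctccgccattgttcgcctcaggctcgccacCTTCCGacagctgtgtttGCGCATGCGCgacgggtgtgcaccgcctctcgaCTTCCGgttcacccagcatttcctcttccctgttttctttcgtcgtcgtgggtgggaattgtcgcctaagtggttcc
COX6A1 (chr12:120437863-120438112, plus strand): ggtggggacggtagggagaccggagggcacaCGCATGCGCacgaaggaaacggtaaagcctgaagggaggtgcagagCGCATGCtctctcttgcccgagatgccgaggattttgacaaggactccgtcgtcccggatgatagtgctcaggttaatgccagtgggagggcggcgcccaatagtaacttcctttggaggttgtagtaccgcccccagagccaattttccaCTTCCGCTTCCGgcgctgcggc
ATP5F1C (chr10:7787927-7788176, plus strand): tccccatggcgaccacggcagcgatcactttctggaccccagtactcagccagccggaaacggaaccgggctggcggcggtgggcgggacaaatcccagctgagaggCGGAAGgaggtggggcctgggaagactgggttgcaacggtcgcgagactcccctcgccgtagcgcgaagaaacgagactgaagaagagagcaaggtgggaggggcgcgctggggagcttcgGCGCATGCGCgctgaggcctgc
COX8A (chr11:63974370-63974619, plus strand): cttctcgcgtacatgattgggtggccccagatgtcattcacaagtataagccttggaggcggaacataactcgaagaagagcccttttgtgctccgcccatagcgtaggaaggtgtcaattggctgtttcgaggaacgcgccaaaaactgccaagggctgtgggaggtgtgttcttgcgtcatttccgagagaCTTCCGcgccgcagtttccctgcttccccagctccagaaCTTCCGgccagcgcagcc
COX5A (chr15:74938074-74938323, minus strand): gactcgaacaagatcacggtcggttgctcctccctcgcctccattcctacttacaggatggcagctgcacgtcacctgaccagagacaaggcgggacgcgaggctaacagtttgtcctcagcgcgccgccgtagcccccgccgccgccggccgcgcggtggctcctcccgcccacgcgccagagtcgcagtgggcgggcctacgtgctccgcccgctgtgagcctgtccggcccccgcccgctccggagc

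In complex II, succinate dehydrogenase, 3 of 4 genes were higher and SDHC did not pass; the median log2 fold change was 0.63. SDHA encodes the flavoprotein that oxidises succinate. It was at 176, 238 and 229.7 CPM in TTC3 shRNA libraries, against 117, 125 and 126 CPM in control libraries. The groups did not overlap, and the log2 fold change was 0.81 ± 0.12 (edgeR adjusted p = 0.00265). SDHB, the iron-sulphur subunit that hands the electrons on, was at 72.9, 84.2 and 89.97 CPM in TTC3 shRNA libraries, against 53.5, 52.4 and 55.4 CPM in control libraries. Its log2 fold change was 0.61 ± 0.09 (edgeR adjusted p = 0.0024), again with no overlap.

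The membrane anchor of complex II is built from SDHC and SDHD, which hold the haem and the ubiquinone site, and the values of these 2 genes were unlike. SDHD (ENSG00000204370.13, chr11:112086773-112120013, plus strand, GRCh38) was at 80.2, 79.8 and 88.2 CPM in TTC3 shRNA libraries, against 53.2, 51.9 and 52.8 CPM in control libraries. All 3 TTC3 shRNA libraries were alike and above the controls, with a log2 fold change of 0.65 ± 0.06 (edgeR adjusted p = 0.000504), the smallest p of the 39 genes. SDHC was at 72.8, 60.3 and 59.6 CPM in TTC3 shRNA libraries, against 61.4, 61.9 and 61.5 CPM in control libraries. Only replicate 1 lay above the controls, and the log2 fold change was 0.06 ± 0.09 (edgeR adjusted p = 0.637). Most SDHC counts lay on an annotated transcript of 13566 bases, and with the length trend removed its log2 fold change was 0.18 (edgeR adjusted p = 0.0329). SDHA shares sequence with copies whose rows held many counts: in control libraries, 2 rows named SDHAP1 stood at 9.03% and 12.1% of the SDHA count, SDHAP2 at 5.83%, and a row named SDHAP4 with no matched position at 20.7%, so the SDHA level is uncertain. None of the 3 calls in complex II was lost when any library was left out.

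In complex III, the cytochrome bc1 complex, 6 of 9 genes were higher, none was lower, and the median log2 fold change was 0.60. UQCRC1, a core protein facing the matrix (ENSG00000010256.11, chr3:48599002-48610976, minus strand), was at 327, 457 and 481 CPM in TTC3 shRNA libraries, against 199.7, 217 and 216 CPM in control libraries. No library overlapped between groups, and the log2 fold change was 1.00 ± 0.14 (edgeR adjusted p = 0.00259). Its partner core protein UQCRC2 was at 92.3, 69.8 and 61.5 CPM in TTC3 shRNA libraries, against 65.8, 67.9 and 67.6 CPM in control libraries. Here the TTC3 shRNA libraries lay on both sides of the controls, and the log2 fold change of 0.15 ± 0.14 did not pass (edgeR adjusted p = 0.449). Without TTC3 shRNA replicate 1 it was -0.01.

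The electron carriers of complex III were both higher. CYC1, cytochrome c1, was at 277, 372 and 386 CPM in TTC3 shRNA libraries, against 189.9, 196 and 206 CPM in control libraries, a log2 fold change of 0.81 ± 0.13 (edgeR adjusted p = 0.00372). UQCRFS1, the Rieske iron-sulphur protein, was at 46.7, 65.4 and 72.8 CPM in TTC3 shRNA libraries, against 37.6, 36.4 and 39.1 CPM in control libraries, a log2 fold change of 0.71 ± 0.15 (edgeR adjusted p = 0.0128). Neither gene overlapped between groups. The UQCRFS1 call was lost without TTC3 shRNA replicate 2 and without control replicate 1 or 2, with adjusted p up to 0.0578, and its expressed copy UQCRFS1P1 stood at over 5% of its count.

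Among the small subunits of complex III the changes were uneven. UQCRB was at 119.6, 112 and 121 CPM in TTC3 shRNA libraries, against 92.9, 92.1 and 92.3 CPM in control libraries, and its log2 fold change of 0.35 ± 0.06 (edgeR adjusted p = 0.00451) was close to the 0.36 found with the length trend removed. UQCRH, the hinge protein next to cytochrome c1, was at 46.1, 58.0 and 62.7 CPM in TTC3 shRNA libraries, against 37.6, 36.0 and 36.4 CPM in control libraries; it was higher by a log2 fold change of 0.60 ± 0.11 (edgeR adjusted p = 0.00755), against 0.14 (adjusted p = 0.0832) with the length trend removed. UQCR11 was at 43.5, 70.2 and 80.1 CPM in TTC3 shRNA libraries, against 40.5, 40.0 and 39.8 CPM in control libraries. Its replicate 1 lay just above the controls, and its log2 fold change of 0.69 ± 0.20 (edgeR adjusted p = 0.0382) lost the call when any library other than TTC3 shRNA replicate 1 was left out. It was also lost with library totals alone, with no filter on low counts, with limma-voom and with the length trend removed. UQCRQ was at 32.8, 55.9 and 66.0 CPM in TTC3 shRNA libraries, against 33.0, 33.2 and 36.2 CPM in control libraries, so that replicate 1 lay below all controls and the log2 fold change of 0.60 ± 0.23 did not pass (edgeR adjusted p = 0.0868). UQCR10 was at 31.3 to 33.2 CPM in TTC3 shRNA libraries, against 27.9 to 30.2 CPM in control libraries, which did not overlap although its log2 fold change of 0.16 ± 0.06 did not pass (edgeR adjusted p = 0.0915). Without TTC3 shRNA replicate 1, both UQCRQ and UQCR10 passed.

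CYCS, the somatic cytochrome c that shuttles electrons between complexes III and IV and also takes part in apoptosis, was at 153, 158 and 179 CPM in TTC3 shRNA libraries, against 132, 125 and 122 CPM in control libraries. The groups did not overlap, and its log2 fold change was 0.37 ± 0.08 (edgeR adjusted p = 0.0115). With the length trend removed it was 0.39 (adjusted p = 0.0112). The call was lost without control replicate 2 or 3, with adjusted p up to 0.0617.

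Complex IV, cytochrome c oxidase, was the complex in which every listed gene passed the test: 9 of 10 were higher and COX5A was lower, with a median log2 fold change of 0.61. It was also the complex with the shortest transcripts, at a median of 641 bases, against 1870 for complex II, 1240 for complex III and 957 for ATP synthase. With the length trend removed, 3 of the 10 (COX8A, COX5B and COX6A1) were higher and COX5A was lower, with a median of 0.13. The transcript length of COX7A2 is uncertain, as under 80% of its count lay on matched transcripts.

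COX8A, a small transmembrane subunit (ENSG00000176340.4, chr11:63974607-63976543, plus strand), was at 119, 161 and 175 CPM in TTC3 shRNA libraries, against 78.5, 84.6 and 84.9 CPM in control libraries. COX5B, a zinc-binding subunit on the matrix side, was at 50.1, 72.8 and 79.6 CPM in TTC3 shRNA libraries, against 36.5, 39.4 and 37.1 CPM in control libraries. Both were highest in replicate 3 and free of overlap. The log2 fold changes were 0.88 ± 0.14 for COX8A (edgeR adjusted p = 0.00394) and 0.84 ± 0.16 for COX5B (edgeR adjusted p = 0.00818), and no left-out library ended either call.

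Other complex IV genes were higher with replicate 1 closest to the controls or changed little between replicates. COX7B was at 92.6, 99.04 and 100.4 CPM in TTC3 shRNA libraries, against 71.9, 69.4 and 74.5 CPM in control libraries, with similar values in all 3 TTC3 shRNA libraries and a log2 fold change of 0.44 ± 0.06 (edgeR adjusted p = 0.00249). It was called whichever library was left out, but its value with the length trend removed was -0.04. COX4I1, the subunit at which ATP is known to regulate the enzyme, was at 88.3, 138 and 143 CPM in TTC3 shRNA libraries, against 77.0, 78.2 and 80.9 CPM in control libraries, a log2 fold change of 0.64 ± 0.17 (edgeR adjusted p = 0.0272). COX6A1, COX6B1, COX6C and COX7A2 are further nuclear-encoded subunits placed around the catalytic core. COX6A1 was at 188, 282 and 318 CPM in TTC3 shRNA libraries, against 159.5, 164 and 158 CPM in control libraries, and COX7A2 was at 45.6, 61.2 and 77.4 CPM, against 37.7, 37.2 and 37.4 CPM. COX6B1 ran from 110.4 to 156 CPM in TTC3 shRNA libraries and from 90.8 to 95.1 CPM in control libraries, and COX6C from 46.2 to 57.3 CPM and from 36.4 to 40.8 CPM. In the order COX6A1, COX6B1, COX6C and COX7A2, their log2 fold changes were 0.71 ± 0.18, 0.58 ± 0.13, 0.46 ± 0.10 and 0.71 ± 0.17, with edgeR adjusted p of 0.021, 0.0137, 0.0108 and 0.0194. In each of these 4 genes the groups did not overlap. Calls for COX4I1 and COX6A1 were lost when any library other than TTC3 shRNA replicate 1 was left out, those for COX6B1 and COX7A2 without TTC3 shRNA replicate 2 or any control, and that for COX6C without control replicate 2 or 3; adjusted p reached 0.0949, 0.0769, 0.0611, 0.0713 and 0.0568 in that order of genes. COX6A1P2, a copy of COX6A1, stood at over 5% of the COX6A1 count.

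COX7C was the only higher gene of complex IV with its highest value in TTC3 shRNA replicate 1. It was at 169, 144 and 145 CPM in TTC3 shRNA libraries, against 131, 125 and 127 CPM in control libraries. The groups did not overlap, but the log2 fold change of 0.26 ± 0.08 was the smallest increase called (edgeR adjusted p = 0.0431). It was lost without TTC3 shRNA replicate 2 or any control, with library totals alone, with no filter on low counts and with the length trend removed, where it was -0.12.

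COX5A was the only gene of the 39 that fell. The protein sits on the matrix side of complex IV next to COX4. COX5A (ENSG00000178741.12, chr15:74919791-74938168, minus strand) was at 47.6, 42.4 and 41.1 CPM in TTC3 shRNA libraries, against 53.1, 55.0 and 55.8 CPM in control libraries. Every TTC3 shRNA library lay below every control library, and the log2 fold change was -0.32 ± 0.07 (edgeR adjusted p = 0.0159). With the length trend removed it was -0.61 (adjusted p = 0.0136). The call was lost without TTC3 shRNA replicate 2 and without any of the 3 controls, with adjusted p up to 0.0776, while the log2 fold change stayed between -0.37 and -0.27.

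The genes around COX5A on chromosome 15 were lower too, a property looked at after its values were seen. Of 57 other protein-coding genes with a mean of at least 5 CPM that start within 5 Mb of COX5A, 44 were lower and 1 was higher, with a median log2 fold change of -0.48. Over the whole of chromosome 15, 60.3% of 340 such genes were lower, against 17.9% of 10797 such genes genome-wide. Before removal of the length trend, COX5A was thus less reduced than the median of its neighbours. With the trend removed COX5A was at -0.61, and its neighbours were not summarised in that fit. COX5B and ATP5MC3 lie on chromosome 2, where 53.9% of 711 such genes were higher with a median of 0.33, against 25.5% and 0.06 genome-wide. The median log2 fold change of genes within 5 Mb was 0.33 around COX5B and 0.20 around ATP5MC3, below the 0.84 and 0.73 of these subunit genes. Chromosome 2 was not alone in this. On chromosomes 11, 17, 19 and 21, 37.1%, 32.7%, 30.6% and 35.6% of such genes were higher and 10%, 8.89%, 17.9% and 28.0% lower. SDHD, COX8A and ATP5MG lie on chromosome 11. Within 5 Mb of COX8A, 93 of 184 such genes were higher and 9 lower. Around the members other than COX5A, COX5B and ATP5MC3 the median ran from -0.24 (COX7C) to 0.39 (COX8A). The part that the chromosome plays in these changes was not tested.

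ATP synthase had 11 of 15 genes higher, none lower, and a median log2 fold change of 0.55. With the length trend removed 7 of the 15 were higher and the median was 0.21. The catalytic head, where ATP is formed, holds the alpha and beta subunits. ATP5F1B, the catalytic beta subunit (ENSG00000110955.9, chr12:56638175-56646068, minus strand), was at 759, 797 and 789 CPM in TTC3 shRNA libraries, against 531, 532 and 541 CPM in control libraries. ATP5F1A, the alpha subunit, was at 305, 346 and 351 CPM in TTC3 shRNA libraries, against 219, 223 and 219 CPM in control libraries. In both genes the libraries of each group lay close together and far from the other group. The log2 fold changes were 0.55 ± 0.06 for ATP5F1B (edgeR adjusted p = 0.000703) and 0.60 ± 0.07 for ATP5F1A (edgeR adjusted p = 0.00132), and they remained 0.38 and 0.53 once the length trend was removed (adjusted p = 0.00174 and 0.000814).

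The central stalk, which turns inside the head, gave uneven values. ATP5F1C, the gamma subunit that forms the shaft, was at 85.1, 70.7 and 72.8 CPM in TTC3 shRNA libraries, against 63.5, 60.5 and 60.8 CPM in control libraries, with replicate 1 the highest. Its log2 fold change of 0.31 ± 0.08 (edgeR adjusted p = 0.0283) lost the call without any of the 3 controls, with library totals alone and with the length trend removed. ATP5F1D, the delta subunit at the foot of the stalk (ENSG00000099624.8, chr19:1241746-1244826, plus strand), was at 45.4, 95.1 and 121 CPM in TTC3 shRNA libraries, against 40.9, 42.5 and 41.1 CPM in control libraries. It had the greatest log2 fold change of the 39 genes, 1.07 ± 0.31 (edgeR adjusted p = 0.0364), but this rested on replicates 2 and 3: relative to the control mean the log2 level was 0.13, 1.197 and 1.54 in replicates 1, 2 and 3. The call was lost when any library other than TTC3 shRNA replicate 1 was left out (adjusted p up to 0.112), with no filter on low counts, with limma-voom and with the length trend removed (0.69, adjusted p = 0.0565). ATP5F1E, the epsilon subunit of the foot, was at 64.8, 84.9 and 91.1 CPM in TTC3 shRNA libraries, against 62.0, 60.9 and 62.5 CPM in control libraries; the groups did not overlap, yet the log2 fold change of 0.38 ± 0.12 did not pass (edgeR adjusted p = 0.0515).

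The ring that turns in the membrane is made of c subunits, and 3 genes, ATP5MC1, ATP5MC2 and ATP5MC3, encode the same mature c protein behind different import sequences. All 3 were higher. ATP5MC3 (ENSG00000154518.10, chr2:175176258-175184607, minus strand) was at 111, 121 and 130.2 CPM in TTC3 shRNA libraries, against 72.5, 71.5 and 73.8 CPM in control libraries, and its log2 fold change was 0.73 ± 0.07 (edgeR adjusted p = 0.000538), or 0.79 with the length trend removed (adjusted p = 0.000866). ATP5MC1 was at 77.0, 87.2 and 94.7 CPM in TTC3 shRNA libraries, against 61.5, 64.0 and 62.6 CPM in control libraries (0.46 ± 0.08, edgeR adjusted p = 0.00657). ATP5MC2 was at 108, 107 and 103 CPM in TTC3 shRNA libraries, against 82.4, 82.8 and 85 CPM in control libraries (0.35 ± 0.05, edgeR adjusted p = 0.00382). None overlapped between groups, and the calls for ATP5MC1 and ATP5MC2 were lost with the length trend removed (log2 fold changes 0.01 and -0.001). Per length of transcript, ATP5MC3 gave 7.82%, 7.95% and 8.30% of the summed level of the 3 genes in TTC3 shRNA libraries, against 6.61%, 6.37% and 6.57% in control libraries. ATP5MC1 gave 47.5% to 53.0% and 48.9% to 50.1%, and ATP5MC2 gave 38.7% to 44.7% and 43.5% to 44.5%. The smallest contributor thus took a larger share in every TTC3 shRNA library, a difference given as a description.

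The peripheral stalk, which holds the head still, is made of the products of ATP5PB, ATP5PD, ATP5PF and ATP5PO, and 3 of the 4 genes were higher. ATP5PB, subunit b, was at 124, 120.1 and 122 CPM in TTC3 shRNA libraries, against 91.2, 90.2 and 89.0 CPM in control libraries. ATP5PO, the subunit joining stalk and head, was at 103, 119 and 122 CPM in TTC3 shRNA libraries, against 77.0, 78.5 and 78.9 CPM in control libraries. ATP5PD, subunit d, was at 119, 155 and 160.4 CPM in TTC3 shRNA libraries, against 92.03, 94.5 and 93.9 CPM in control libraries. All TTC3 shRNA libraries of these 3 genes lay above the controls, and those of ATP5PB hardly differed from each other. The log2 fold changes were 0.44 ± 0.05, 0.55 ± 0.08 and 0.63 ± 0.12 for ATP5PB, ATP5PO and ATP5PD in that order (edgeR adjusted p = 0.00132, 0.00222 and 0.00657), and without the trend in length they were 0.40, 0.21 and 0.17 (adjusted p = 0.000972, 0.0254 and 0.032). ATP5PF, coupling factor 6, was at 47.1, 36.0 and 38.8 CPM in TTC3 shRNA libraries, against 39.3, 37.99 and 39.1 CPM in control libraries. Its groups overlapped, and its log2 fold change of 0.07 ± 0.10 did not pass (edgeR adjusted p = 0.651).

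Small membrane subunits of ATP synthase, known for their place at the interface between paired enzymes, differed among themselves. ATP5MG, subunit g, was at 74.7, 104 and 119 CPM in TTC3 shRNA libraries, against 53.8, 55.0 and 55.3 CPM in control libraries, without overlap and with a log2 fold change of 0.86 ± 0.16 (edgeR adjusted p = 0.00662). ATP5ME, subunit e and the least counted of the 39 genes, was at 10.1, 16.5 and 19.0 CPM in TTC3 shRNA libraries, against 10.6, 8.73 and 10.2 CPM in control libraries. Its replicate 1 lay within the control range, and its log2 fold change of 0.62 ± 0.22 did not pass (edgeR adjusted p = 0.0698). ATP5MF, subunit f, was at 39.5, 33.6 and 34.3 CPM in TTC3 shRNA libraries, against 34.2, 34.1 and 37.0 CPM in control libraries. Its groups overlapped as well, with a log2 fold change of 0.03 ± 0.08 (edgeR adjusted p = 0.815). Without TTC3 shRNA replicate 1, ATP5ME and ATP5F1E passed.

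**Figure D3:**
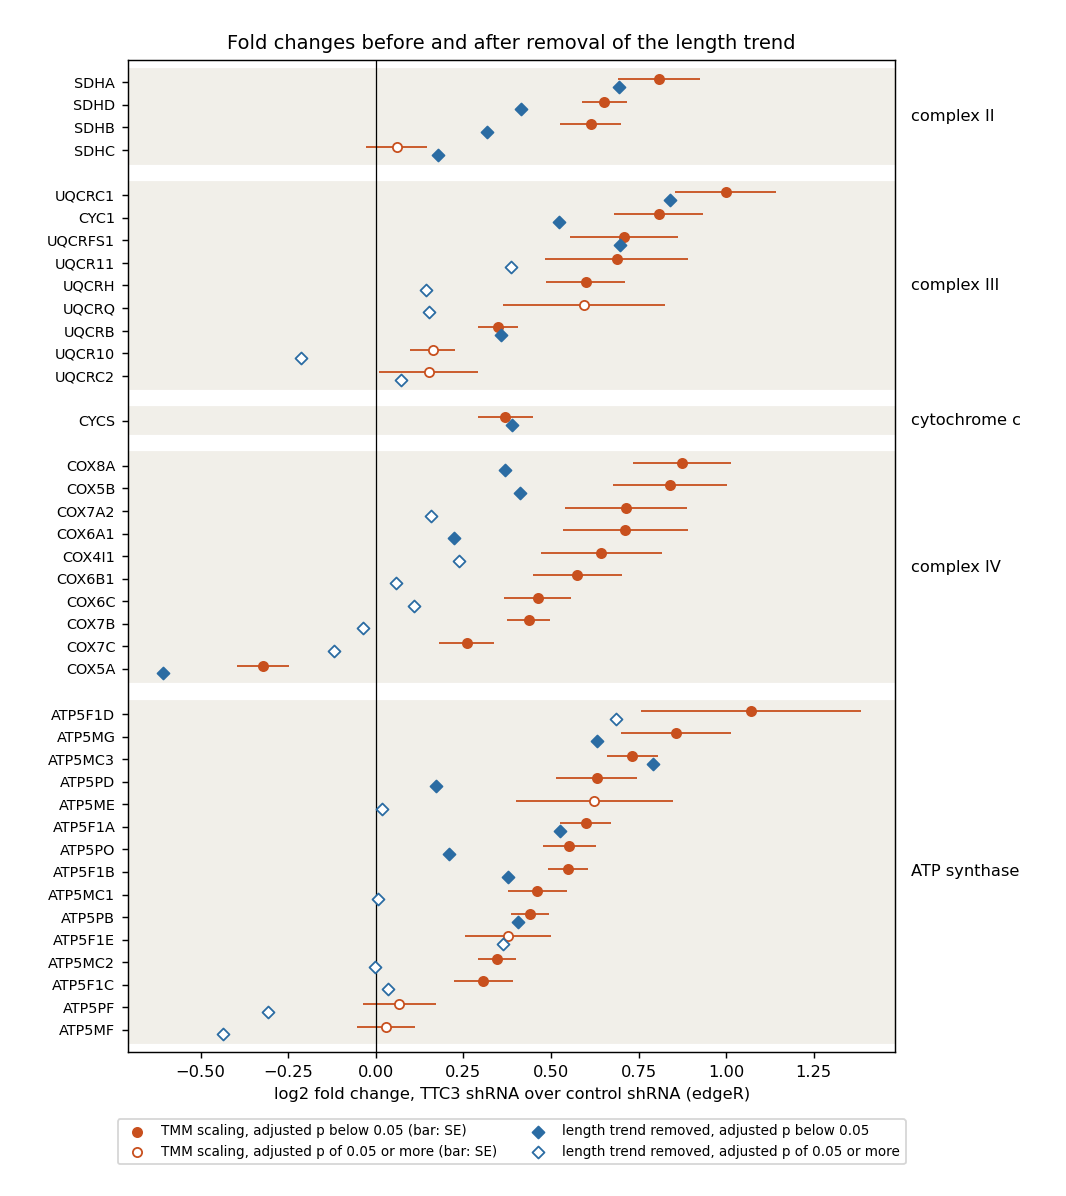
Log2 fold change of each gene, TTC3 shRNA over control shRNA, from edgeR with TMM scaling (circles, bars show SE) and with each library's length trend removed (diamonds); filled symbols mark adjusted p below 0.05. Circles lie to the right of 0 for every gene except COX5A, and diamonds lie to the left of the circles for the short complex IV transcripts, as for COX7B (0.44 as a circle, -0.04 as a diamond).

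Across the genes of each complex the replicates kept the same order. The median log2 level relative to control in TTC3 shRNA replicates 1, 2 and 3 was 0.48, 0.62 and 0.74 in complex II, 0.33, 0.71 and 0.95 in complex III, 0.28, 0.69 and 0.81 in complex IV and 0.37, 0.58 and 0.60 in ATP synthase. Every complex was thus above control in each library and least so in replicate 1. Replicate 1 alone was also set against the 3 controls, a comparison chosen after seeing the data. The median log2 fold change there was 0.35 over the 39 genes, against -0.05 over all tested genes. As a lone library has no spread of its own, calls from that fit are not given.

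Per length of transcript, the level of the 39 genes spanned 5.94 CPM per kb (SDHC) to 291 CPM per kb (ATP5F1B) in control libraries. The order of the genes was nearly the same in both groups (Spearman's rho 0.96 between group means, a description over 39 genes). In complex II, SDHA stood highest at 92.4 ± 14.4 CPM per kb in TTC3 shRNA libraries and 52.8 ± 2.05 CPM per kb in control libraries (SD, n = 3 each). In complex III it was CYC1, at 278 ± 47.7 and 159 ± 6.41 CPM per kb, and in complex IV COX6A1, at 459.8 ± 117 and 281 ± 5.52 CPM per kb. In ATP synthase ATP5F1B stood highest, at 425 ± 10.9 and 291 ± 3.05 CPM per kb. These levels depend on the annotated length, which is long for SDHC, UQCRFS1 and ATP5MC3, the lowest of their complexes in control libraries.

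**Figure D4:**
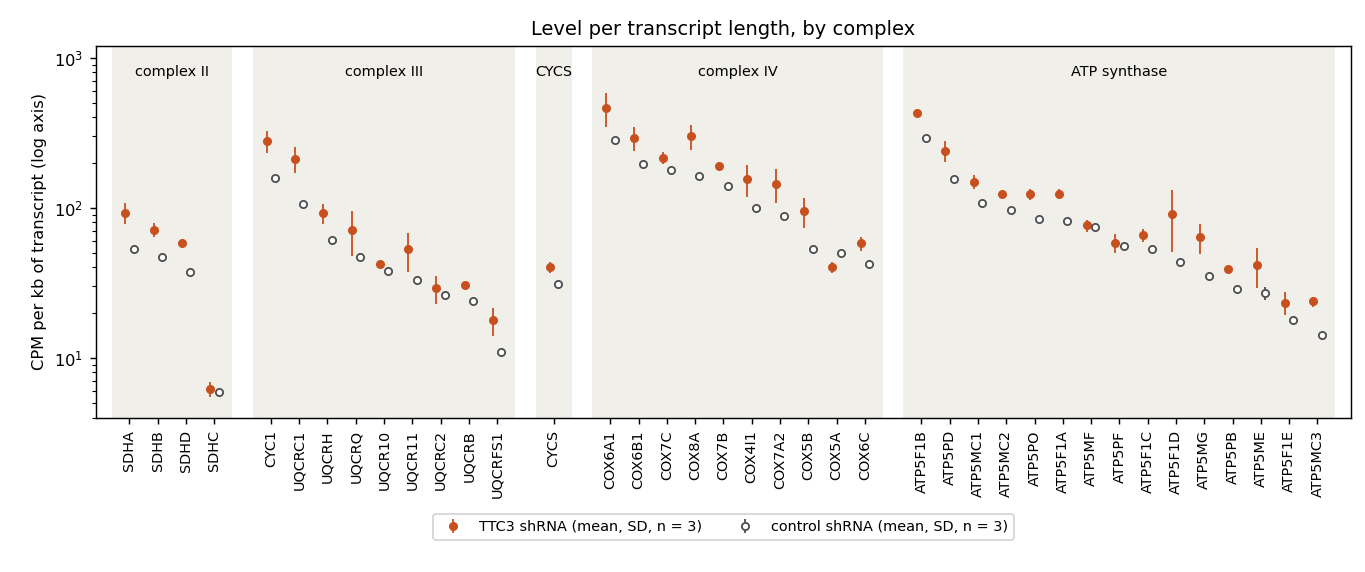
Mean level of each gene in CPM per kb of transcript (y axis, log scale) with SD over 3 libraries, TTC3 shRNA to the left of control shRNA for each gene, ordered within each complex by the control level. ATP5F1B (425 and 291 CPM per kb) and COX6A1 (459.8 and 281 CPM per kb) stand at the top and SDHC (6.19 and 5.94 CPM per kb) at the bottom in both groups.

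At the level of transcripts, 119 of 122 annotated transcripts of the 39 genes could be tested, and 12 were higher and none lower, where 1.39% of 53805 transcripts were called higher. Each was the main transcript of its gene: SDHA-201, SDHB-201, SDHD-201, UQCRC1-201, CYC1-201, COX4I1-201, COX8A-201, ATP5F1B-201, ATP5MC3-201, ATP5MG-201, ATP5PB-202 and ATP5PO-201. ATP5F1B-201 had the smallest adjusted p, at 761.9, 787 and 777 CPM in TTC3 shRNA libraries, against 535, 538 and 544 CPM in control libraries (log2 fold change 0.52 ± 0.04, edgeR adjusted p = 0.00597). The 3 values of each group lay close together and did not overlap. When TTC3 shRNA replicate 2 or 3 was left out 1 transcript was called, without any control 0, and without TTC3 shRNA replicate 1 the number was 29.

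The 5 listed subunits of complexes IV and V that were not among the 39 were all higher. COX7A2L, a factor in supercomplex assembly, was at 54.9, 55.7 and 61.9 CPM in TTC3 shRNA libraries, against 41.1, 39.7 and 40.5 CPM in control libraries (log2 fold change 0.51 ± 0.07, edgeR adjusted p = 0.00194). ATP5IF1, the natural inhibitor of ATP synthase, was at 21.1, 24.3 and 22.9 CPM in TTC3 shRNA libraries, against 16.6, 15.9 and 15.4 CPM in control libraries (0.51 ± 0.08, edgeR adjusted p = 0.00355). Both pairs of groups were clear of each other. NDUFA4, ATP5MJ and ATP5MK had log2 fold changes of 0.33, 0.41 and 0.22 (edgeR adjusted p = 0.0148, 0.00733 and 0.0342). The ATP5MK call was lost without any library except TTC3 shRNA replicate 1, that of NDUFA4 without any control, and 1 of the 5 was called with the length trend removed. Of 9 tissue-restricted isoforms 4 could be tested. Among these, COX7B2, a testis-type isoform of COX7B, fell to 0.464, 0.686 and 0.661 CPM in TTC3 shRNA libraries, against 3.06, 3.34 and 3.94 CPM in control libraries (-2.51 ± 0.20, edgeR adjusted p = 0.000222), well apart in all 6 libraries. The muscle and lung isoforms COX4I2, COX6A2 and COX7A1 had 0 counts in all 6 libraries.

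The mitochondrially encoded partners did not share the rise of the nuclear genes, and TTC3 shRNA replicates differed. MT-CO1, the catalytic core of complex IV, was at 15047, 9108 and 8817 CPM in TTC3 shRNA libraries, against 12964, 12496 and 12981 CPM in control libraries. MT-CYB, cytochrome b of complex III, was at 2721, 1561 and 1472 CPM in TTC3 shRNA libraries, against 2695, 2567 and 2754 CPM in control libraries. In both, replicate 1 lay at or above most controls and replicates 2 and 3 lay below all of them, and neither passed (log2 fold change -0.22 ± 0.20 and -0.48 ± 0.23, edgeR adjusted p = 0.434 and 0.145). Of the 6 partners, MT-ATP8 passed, at 2312, 2289 and 2769 CPM in TTC3 shRNA libraries, against 1825, 1836 and 1867 CPM in control libraries (0.41 ± 0.09, edgeR adjusted p = 0.0116). It is an ATP synthase subunit whose reading frame overlaps that of MT-ATP6, so the division of reads between them is uncertain, and its call was lost without any of the 3 controls and with the length trend removed. Without TTC3 shRNA replicate 1, 4 of the 6 partners were lower and MT-ATP8 was higher. The median log2 level of the 6 partners relative to control was 0.26, -0.41 and -0.45 in TTC3 shRNA replicates 1, 2 and 3. For every 100 CPM of the partners, the 39 nuclear genes summed to 13.5, 24.8 and 26.3 CPM in TTC3 shRNA replicates 1, 2 and 3, against 11.9, 12.5 and 12.1 CPM in control libraries, so that all 3 TTC3 shRNA libraries lay above the controls and replicate 1 only slightly.

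Complex I, the entry point for electrons from NADH, was higher too: 26 of its 37 nuclear subunit genes were higher and none lower, with a median log2 fold change of 0.54 and medians of 0.23, 0.59 and 0.68 in TTC3 shRNA replicates 1, 2 and 3. NDUFA10 was at 99.1, 94.9 and 93.9 CPM in TTC3 shRNA libraries, against 58.5, 58.3 and 58.5 CPM in control libraries (0.72 ± 0.06, edgeR adjusted p = 0.000188). NDUFS1, which carries iron-sulphur clusters, had a log2 fold change of 0.71 ± 0.07 (edgeR adjusted p = 0.000678). Both lie on chromosome 2. The count of complex I genes called was 33 higher and 1 lower without TTC3 shRNA replicate 1 and between 11 and 18 higher without any other library. After removal of the length trend, 16 were higher and 1 was lower, and the median was 0.24.

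The carriers that serve ATP synthase were higher as well. SLC25A3, which imports phosphate, was at 273, 326 and 344 CPM in TTC3 shRNA libraries, against 200.4, 204 and 202 CPM in control libraries (0.64 ± 0.09, edgeR adjusted p = 0.00269). SLC25A5, an exchanger of ADP and ATP, was at 419, 447 and 446 CPM in TTC3 shRNA libraries, against 321, 327 and 319.6 CPM in control libraries (0.44 ± 0.06, edgeR adjusted p = 0.00203). Neither overlapped between groups, and neither call was lost when any library was left out. The exchangers SLC25A6 and SLC25A4 were higher by 0.76 and 0.49 (edgeR adjusted p = 0.0121 and 0.0118), calls that were lost without control replicate 1 or 3 and without control replicate 2 or 3.

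Assembly factors were mixed. Of 41 tested, 17 were higher and 3 lower, with a median log2 fold change of 0.30. Once the length trend was removed the higher calls among assembly factors numbered 1 for complex II factors, 3 for complex III, 6 for complex IV and 1 for ATP synthase, and the lower calls 3, all for complex III. All 3 that fell serve complex III or cytochromes. TTC19, which clears fragments of the Rieske protein, was at 28.2, 26.1 and 28.7 CPM in TTC3 shRNA libraries, against 59.5, 57.8 and 55.4 CPM in control libraries, a log2 fold change of -1.06 ± 0.07 (edgeR adjusted p = 8.32e-05). UQCC1, which supports cytochrome b synthesis, and HCCS, which attaches haem to cytochromes c and c1, fell by 0.33 and 0.34 on the log2 scale (edgeR adjusted p = 0.00453 and 0.0238). In contrast, BCS1L, which inserts the Rieske protein, was at 23.99, 28.3 and 31.6 CPM in TTC3 shRNA libraries, against 15.3, 15.6 and 15.6 CPM in control libraries (0.86 ± 0.11, edgeR adjusted p = 0.00142). Neither TTC19, UQCC1 nor BCS1L lost its call when any library was left out, whereas HCCS did with any library except TTC3 shRNA replicate 1. For complex II, 2 of 4 factors were higher, SDHAF4 by 1.14 and SDHAF2 by 0.36 (edgeR adjusted p = 0.0169 and 0.0255); both calls were lost without TTC3 shRNA replicate 2 or any control, and that of SDHAF2 without TTC3 shRNA replicate 3. For complex IV, 10 of 25 were higher, led by LRPPRC (0.42), TACO1 (0.59), SLIRP (0.39) and COX16 (0.50), with edgeR adjusted p of 0.00317, 0.00547, 0.00681 and 0.01, and without TTC3 shRNA replicate 1 the list gave 18 higher and 3 lower, without any other library 4 to 8 higher. For ATP synthase, 2 of 5 were higher, TMEM70 by 0.30 and ATPAF2 by 0.50 (edgeR adjusted p = 0.011 and 0.0183), and both calls were lost without any of the 3 controls, as was that of ATPAF2 without TTC3 shRNA replicate 2 or 3.

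The tricarboxylic acid cycle, which supplies complexes I and II, was mixed. Of 13 enzymes 6 were higher and 1 lower, with a median log2 fold change of 0.09. SUCLG1 was at 66.1, 60.5 and 60.6 CPM in TTC3 shRNA libraries, against 34.3, 35.9 and 34.6 CPM in control libraries (0.84 ± 0.06, edgeR adjusted p = 0.000185). IDH3B and citrate synthase (CS) were higher by 0.60 and 0.43 (edgeR adjusted p = 0.00146 and 0.00397). IDH3A, the catalytic partner of IDH3B and, like COX5A, a chromosome 15 gene, fell to 57.8, 49.2 and 49.6 CPM in TTC3 shRNA libraries, against 69.6, 72.5 and 68.3 CPM in control libraries (-0.43 ± 0.08, edgeR adjusted p = 0.00733). Calls for these 4 enzymes were not lost when any library was left out, while the whole list gave 6 higher and 4 lower without TTC3 shRNA replicate 1.

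**Figure D5:**
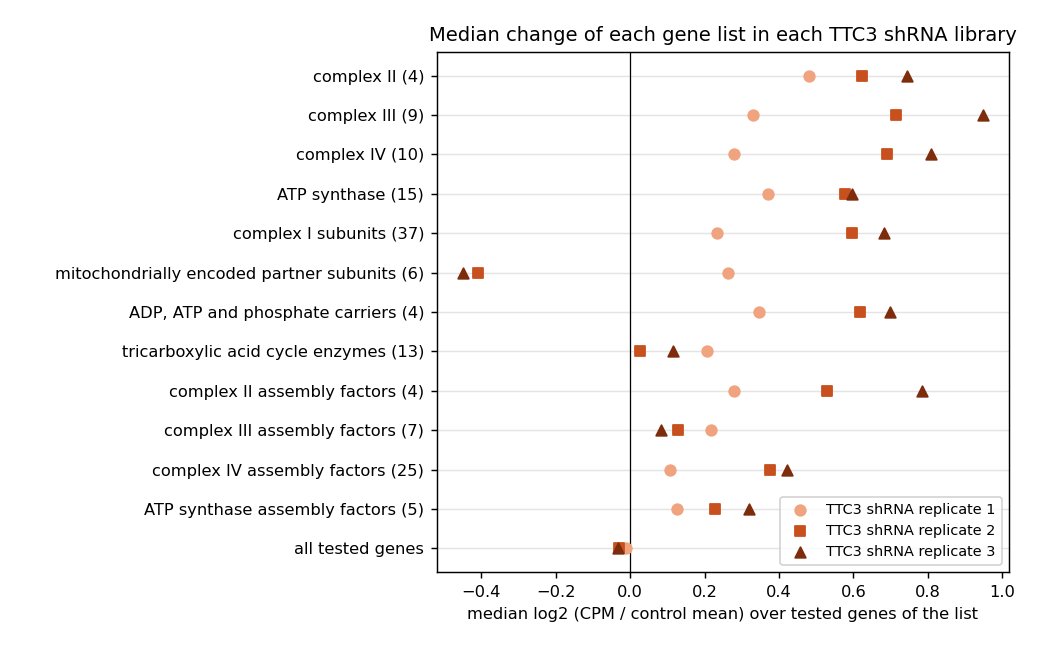
Median log2 level relative to the control mean (x axis) in TTC3 shRNA replicates 1, 2 and 3 (symbols) for each complex and for related gene lists (y axis, number of tested genes in brackets), with all tested genes at the bottom. Complexes II, III, IV and ATP synthase lie between 0.28 and 0.95 and all tested genes at -0.01 to -0.03, while the mitochondrially encoded partners lie at 0.26 in replicate 1 and at -0.41 and -0.45 in replicates 2 and 3.

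Of the listed regulators of respiratory gene transcription, 5 of 9 tested were higher. TFB2M, a mitochondrial transcription factor, was at 22.1, 24.3 and 26.6 CPM in TTC3 shRNA libraries, against 19.0, 18.0 and 18.1 CPM in control libraries (0.41 ± 0.09, edgeR adjusted p = 0.0118). ESRRA, a nuclear receptor, was higher by 0.70 (edgeR adjusted p = 0.0205), and YY1 and PPRC1 by 0.26 and 0.27 (edgeR adjusted p = 0.0171 and 0.0264). NRF1, whose motif was counted above, was at 25.6, 26.3 and 26.1 CPM in TTC3 shRNA libraries, against 21.8, 22.6 and 22.7 CPM in control libraries (0.22 ± 0.06, edgeR adjusted p = 0.031). The number of listed regulators called, all as higher, was 0 to 2 when TTC3 shRNA replicate 2 or 3 or any control was left out, 8 without TTC3 shRNA replicate 1 and 7 with the length trend removed. The coactivator PPARGC1A had no counts in any TTC3 shRNA library and at most 0.141 CPM in a control library.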

How the data were processed

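RNA-seq of 3 TTC3 shRNA and 3 control shRNA libraries was analysed, with groups and replicate numbers taken from sample titles. Each deposited value is an estimated count, a whole number without scaling for library size, for 62700 genes and 117688 transcripts. The submitters' processing notes name hg38 with the tools StringTie, STAR and Trim Galore; tool versions, the annotation release and strand use in counting were not given in the sources used here, so overlapping, antisense and near-identical genes are uncertain. Libraries held 143246356 to 155526861 counts and the lowest member count was 1410, so spread between libraries, more than counting error, limits precision.

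Genes were tested with edgeR 4.0.16 (R 4.3.3): filterByExpr defaults, TMM scaling (factors 0.924 to 1.05), glmQLFit and glmQLFTest over 6 libraries with no block, Benjamini-Hochberg over all tested genes, threshold 0.05. The SE is the log2 fold change divided by the square root of F. Levels per replicate use log2(CPM + 0.05). Positions, gene types and lengths (count-weighted over transcripts) came from GENCODE 29 on GRCh38, which is hg38. The length trend was a lowess curve (span 0.5) per library on protein-coding genes outside all lists with at least 5 CPM, entered as offsets. Pairs of libraries within a group differed by 3.96 to 34.0 times sampling noise (chi-square), and each library was counted as a replicate. Such spread can be technical too, so it cannot tell whether libraries were grown separately. The procedure was also run on simulated counts with the same spread setting in both groups and no length trend. As these data differ in both respects, that run cannot tell how reliable their calls are. The members, lists, length check and alternatives were chosen with earlier results of these data known. Named genes were TTC3, all members, and up to 4 called genes of each other list by adjusted p (2 by expression where none passed); some that this rule gives are not described. Alternatives were other scalings, other filters, DESeq2 1.42.0, limma-voom 3.58.1, an adjusted p of 0.01, the replicate block, the length trend, and each library left out.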

Additional observations from a re-analysis of the deposited data

How the results depend on the processing

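Under DESeq2 size factors, scaling without mitochondrial and the 20 most abundant genes, a minimum of 50 counts in 3 libraries, DESeq2 and limma-voom, no gene of the 39 changed direction, and the calls that changed were 1, 0, 0, 3 and 2. Some counts of calls moved by over 1.5 times with the length trend removed, at the stricter threshold, with libraries left out and with the replicate block. With the length trend removed, 20 members were called, 4 in complex IV and 7 in ATP synthase. At an adjusted p below 0.01 there were 4082 genes, 19 members, 3 in complex IV and 1 member transcript. Leaving out each library in turn gave 4546 to 13739 genes, 19 to 35 members, 4 to 8 in complex III, 3 to 10 in complex IV, 9 to 13 in ATP synthase and 0 to 29 member transcripts; the highest count in each came without TTC3 shRNA replicate 1, and complex II gave 3 throughout. Same-numbered libraries showed little shared deviation (correlations 0.06, 0.06 and -0.01, against -0.06 to 0.02 for differently numbered ones). With 3 libraries per group these values cannot tell whether the numbers pair them. With the replicate number as a block, 6929 genes and 30 members were called, COX7C was lost, and no member transcript was called (0). The block with the length trend removed gave 16 members, 3 in complex IV and 5 in ATP synthase.

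Direction was reversed for few genes. Library totals alone moved the all-gene median by -0.13, and gave log2 fold changes of -0.064 for SDHC, -0.10 for ATP5MF and -0.056 for ATP5PF. Removing the length trend, which moved that median by -0.13 as well, gave -0.21 for UQCR10, -0.036 for COX7B, -0.12 for COX7C, -0.0011 for ATP5MC2, -0.43 for ATP5MF and -0.31 for ATP5PF; with the block added these were -0.23, -0.048, -0.15, -0.015, -0.48 and -0.35. Leaving out each library gave -0.023 to 0.12 for SDHC, -0.015 to 0.28 for UQCRC2, -0.031 to 0.077 for ATP5MF and -0.035 to 0.15 for ATP5PF, the lowest without TTC3 shRNA replicate 1. With TTC3 shRNA replicate 1 alone, chosen after seeing the data, UQCRQ was at -0.052. Apart from the construction of each alternative, the cause was not tested.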
